A study of Homo sapiens with 3 samples.

Results

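Nuclear receptor genes were examined for 2 histone marks in HCC1599, a cell line established from a breast cancer that the series title places in the triple-negative class (without estrogen receptor alpha, progesterone receptor or HER2). The 43 genes were taken by name, from a list of protein-coding members of the receptor superfamily, out of 19970 protein-coding genes on chromosomes 1 to 22 and X. The series held 3 samples of HCC1599 chromatin: 1 immunoprecipitated with an antibody to H3K27ac (acetylated histone H3, found at active promoters and enhancers), 1 with an antibody to H3K4me3 (trimethylated histone H3, found at promoters) and 1 input without antibody. The series title calls the cells positive for MARCO-TST. The authors deposited 1 peak list per mark, of which 72894 H3K27ac and 32043 H3K4me3 peaks were used, with a score per peak that ran from 30 to 3233 and piled up at 3100. With 1 library per mark there is no replicate error and no p-value, and read depth is unknown, so a place without a peak is one where none was called. Marker genes were read at their listed starts, or at both ends of the gene where no start was listed, as for EPCAM, CDH1 and KRT18. Of 5 epithelial and basal markers 4 carried both marks there and KRT8 carried H3K27ac alone. All 9 macrophage, lymphocyte and endothelial markers carried neither there. In the span or the adjoining 1 kb KRT8 had both marks, and the endothelial PECAM1 and VWF had H3K27ac alone.

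Nuclear receptors are transcription factors that bind DNA through zinc fingers and, in many cases, are switched by a small lipophilic ligand held in a C-terminal domain. Steroid receptors bind hormone in the cytoplasm or nucleus and act mainly as homodimers. Retinoic acid, thyroid hormone, vitamin D and lipid-sensing receptors pair with the retinoid X receptors on chromatin, and orphan receptors have no established natural ligand or were named before one was found. Many of these genes have several promoters that give rise to different receptor isoforms.

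Marks were read within 1 kb of every start that RefSeq (GRCh38.p14) lists for a gene. Starts were listed for 38 of the 43 genes, 86 in all, and are numbered here from 5′ to 3′ along each gene. The other 5 (VDR, HNF4G, NR2F6, NR4A2 and NR0B2) were read at both ends of their spans. Both marks were called at 30 of 43 genes (69.8%, exact 95% interval 53.9 to 82.8, for counting error only), against 57.7% of all protein-coding genes read in the same way. H3K4me3 alone was called at 5 (11.6%, against 12.2%), H3K27ac alone at 2 (4.65%, against 2.27%) and neither at 6 of 43 (against 27.8%). The intervals of the last 3 shares ran from 3.89 to 25.1, 0.568 to 15.8 and 5.30 to 27.9%, so all 4 intervals included the value over all genes, the last one narrowly. These genes had a mean of 2.26 listed starts where any was listed, against 1.4 over all genes, and so more places at which a mark could be found. At the first listed start alone, both marks were called at 24 of 43 (55.8%, against 56.2%), H3K4me3 alone at 7 (against 12.3%), H3K27ac alone at 2 (against 2.28%) and neither at 10 (against 29.2%). In this reading the genes without listed starts, 5 of the 43, were still read at both ends. The excess of doubly marked genes was not seen in it, and the part of the number of starts in that excess was not tested. Among the 38 genes with listed starts the 4 counts were 26 (against 60.0% of genes with listed starts), 5 (against 12.1%), 2 (against 1.88%) and 5 (against 26.0%). Anywhere in the span or the adjoining 1 kb, both marks were found at 36 genes (against 68.2%), H3K4me3 alone at 3 (against 7.33%), H3K27ac alone at 1 (against 5.17%) and neither at 3 (against 19.3%).

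At the 30 genes with both marks, the marks met at the same start or end in all 30. The widest H3K4me3 peak there had a median width of 3850 bp and the widest H3K27ac peak 2336 bp, against 3741 and 2040 bp over the 11523 protein-coding genes with both. H3K4me3 scored 3100 at 28 of the 35 genes that had it, close to the 77.2% of all genes with H3K4me3 that scored at least as much. The lowest H3K4me3 score was 41.5, at RXRG. H3K27ac ran from 32.3 at NR5A2 to 3100, which it reached at 5 of the 32 genes that had it. In the whole lists 33.4% of H3K4me3 and 3.50% of H3K27ac peaks scored exactly 3100, so spreads of score cannot be compared between the marks. The strongest H3K27ac peak scored under 100 at 5 of the 30 genes with both (16.7%, against 11.7% of all genes with both). The 5 with scores under 100 were NR2C1, NR3C2, ESRRG, NR4A3 and NR5A2.

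**Figure D1:**
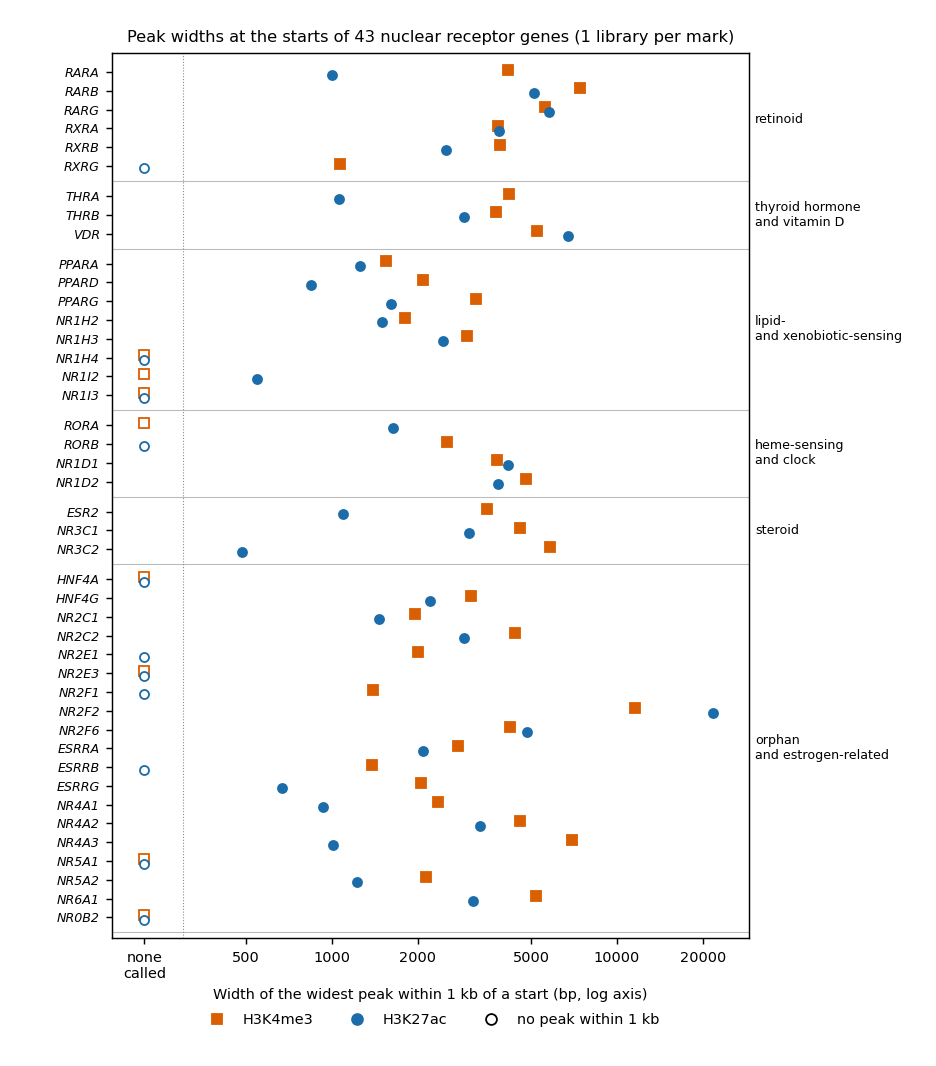
Width of the widest H3K4me3 peak (squares) and H3K27ac peak (circles) within 1 kb of a start, or of either end for the 5 genes without listed starts, for each of the 43 genes by class, on a log axis in bp; open symbols mark no called peak. NR2F2 lies apart at 11538 bp of H3K4me3 and 21684 bp of H3K27ac, and 6 genes have both symbols open.

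The retinoid receptors carried both marks at 5 of 6 genes. RARA, RARB and RARG encode the retinoic acid receptors, and RXRA, RXRB and RXRG their shared partners. RARG, at 53210569 to 53232209 of chromosome 12 (hg38), had an H3K4me3 peak of 5581 bp and an H3K27ac peak of 5758 bp at its single listed start, both scoring 3100. RXRA had 2 peaks of each mark, on opposite sides of its first start. The H3K27ac ones were 2102 bp wide with a score of 3100 and 3865 bp wide with a score of 695. RXRA start 2, 52840 bp downstream, had H3K27ac alone, 1491 bp wide with a score of 145. At RXRB, H3K4me3 was 3879 bp and H3K27ac 2507 bp wide with a score of 2715, in an H3K4me3 peak that also held a start of SLC39A7, a zinc transporter gene. RXRG had H3K4me3 alone, 1065 bp wide with a score of 41.5. The 3 retinoic acid receptor genes thus differed from one another in their H3K27ac scores, at 119 for RARA, 1974 for RARB and 3100 for RARG.

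RARA and RARB were marked at some starts and not at others. At RARA, start 1 of 3 had no peak within 1 kb, start 2, 9065 bp downstream, had an H3K4me3 peak of 4158 bp and an H3K27ac peak of 1004 bp, and start 3, at 32986 bp, had 2201 and 854 bp. RARB spans 768612 bp on chromosome 3, from 24829321 to 25597932. Its start 1 had H3K4me3 of 2452 bp with a score of 3100 and no H3K27ac. Start 3, which lies 598942 bp further along, had H3K4me3 of 7423 bp at 25425932 to 25433354 and H3K27ac of 5119 bp at 25425714 to 25430832. Starts 2 and 4 had neither mark.

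The 250 bases before the marked starts of RARB, from RefSeq (GRCh38.p14), are shown because they differ in kind. Before start 1 there are 28 CpG dinucleotides, in capitals, and 76% G and C. Before start 3 there are 7 CpG and 46% G and C, and the capitals there mark the 2 hexamers of a direct repeat with 5 bases between them, a DR5, which is the arrangement known as a retinoic acid response element.
RARB start 1, chr3:24829071-24829320, plus strand: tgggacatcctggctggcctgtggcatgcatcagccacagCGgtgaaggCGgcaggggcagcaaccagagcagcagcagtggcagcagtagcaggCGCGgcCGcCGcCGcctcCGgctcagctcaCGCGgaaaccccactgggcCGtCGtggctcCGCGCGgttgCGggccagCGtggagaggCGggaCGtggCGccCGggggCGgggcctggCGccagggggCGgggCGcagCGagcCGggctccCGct
RARB start 3, chr3:25428013-25428262, plus strand: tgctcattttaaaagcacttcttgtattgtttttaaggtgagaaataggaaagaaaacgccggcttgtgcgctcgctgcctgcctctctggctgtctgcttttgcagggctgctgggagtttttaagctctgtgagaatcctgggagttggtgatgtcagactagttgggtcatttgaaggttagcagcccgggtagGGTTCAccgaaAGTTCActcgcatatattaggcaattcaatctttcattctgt
The repeat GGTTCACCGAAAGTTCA lies at bases -53 to -37 from start 3, in which negative positions lie before the start. Direct repeats with 1 to 5 bases between the hexamers were searched, with the hexamer taken as AGGTCA or as its variant AGTTCA, its variant GGTTCA or its variant GGGTCA. The search covered both strands of the 300 bases around each of the 86 starts. This was the only one found. Over all 22131 listed starts of protein-coding genes, 17 (0.0768%) held a DR5 of these hexamers. Repeats with 1, 2, 3 and 4 bases between them were held by 29, 8, 15 and 16 starts. The 0.0768% thus covers 1 of the 5 spacings searched. A match describes the sequence and does not show that a receptor is bound.

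**Figure D2:**
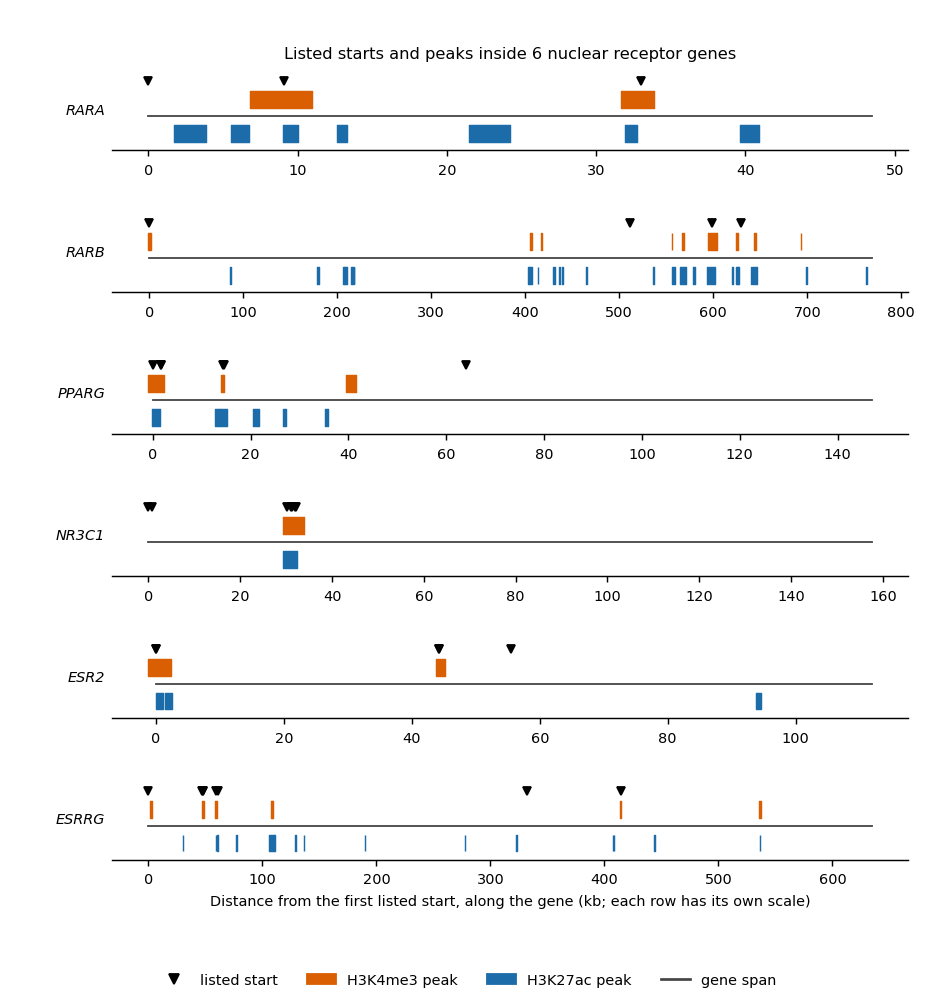
Listed starts (triangles), H3K4me3 peaks (upper boxes) and H3K27ac peaks (lower boxes) along 6 genes with several starts, by distance in kb from the first listed start in the direction of the gene; each row has its own scale. RARB start 3 lies near 599 kb under the widest H3K4me3 peak of the gene, and the first 2 starts of NR3C1 have no peak while its other 5 share a single one.

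THRA and THRB, which encode the thyroid hormone receptors, and VDR, the vitamin D receptor gene, all carried both marks. VDR had the widest peaks of the 3, 5234 bp of H3K4me3 and 6753 bp of H3K27ac scoring 1683 at its higher-coordinate end. THRA had 4181 bp of H3K4me3 with 1059 bp of H3K27ac scoring 560, and THRB 3754 bp with 2919 bp scoring 1055. The THRB peaks also held a start of the antisense gene THRB-AS1. THRA overlaps NR1D1, the gene of a circadian repressor, by 1075 bp at its far end, and their windows share 12 H3K27ac peaks, so their counts below are not separate.

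Lipid- and xenobiotic-sensing receptors carried both marks at 5 of 8 genes. The widest H3K27ac peak had a median of 1378.5 bp at the 6 genes with one, against 2008 bp over all protein-coding genes with one. The steroid receptors had a lower median, 1094 bp, and NR1H3 in this class lay above the value over all genes. PPARA, PPARD and PPARG encode fatty acid receptors, and NR1H2 and NR1H3 the LXR oxysterol receptors. The widest H3K27ac peak at their starts was 1253 bp at PPARA, 846 at PPARD, 1609 at PPARG, 1504 at NR1H2 and 2455 at NR1H3. The highest score of any H3K27ac peak there, not always that of the widest one, was 1697 at NR1H2, 324 at PPARA, 149 at PPARD, 155 at PPARG and 319 at NR1H3. PPARG had 3215 bp of H3K4me3 over starts 1 to 3, 659 bp with a score of 54.8 at starts 4 and 5, and nothing at start 6, 64049 bp downstream. NR1H3 was marked at all 4 starts, the first 2 within an H3K4me3 peak of 2985 bp that also held a start of ACP2, a lysosomal phosphatase gene.

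The other 3 of this class are known for roles in liver and gut. NR1H4, the bile acid receptor FXR, and NR1I3, the xenobiotic receptor CAR, had no peak of either mark in their spans or within 1 kb. NR1I2, the xenobiotic receptor PXR, had H3K27ac alone near start 1, 548 bp wide with a score of 40.2 and 794 bp from the start. That call was absent within 500 bp and at scores of at least 50.

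Heme-sensing and clock receptors were split. NR1D1 and NR1D2, which encode the REV-ERB repressors of the circadian clock, carried both marks, with H3K4me3 of 3782 and 4794 bp and H3K27ac of 4160 and 3832 bp scoring 901 and 1240. RORB, a receptor gene of retina and brain, had H3K4me3 alone at start 1, 2544 bp with a score of 1463. That peak also held a start of the antisense gene RORB-AS1. No H3K27ac peak lay within the 195843 bp of RORB or 50 kb around. RORA, whose product activates clock genes, had H3K27ac alone at its only listed start, 1643 bp with a score of 162. Its span of 741019 bp reaches far upstream of that start. Over the 5′ end of the span, 599035 bp away, lay an H3K4me3 peak of 3360 bp at 61226565 to 61229924 of chromosome 15 with a score of 3100 and no H3K27ac. RORA is therefore counted by the start listed here, and read at its ends it had H3K4me3 alone.

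The 3 steroid receptor genes of the list, NR3C1 for the glucocorticoid receptor, NR3C2 for the mineralocorticoid receptor and ESR2 for estrogen receptor beta, all carried both marks, with very different H3K27ac. NR3C1 had 7 listed starts. Starts 1 and 2 had neither mark, and starts 3 to 7, between 30157 and 32229 bp downstream, all lay in an H3K4me3 peak of 4566 bp at 143401671 to 143406236 of chromosome 5, with an H3K27ac peak of 3035 bp scoring 999. NR3C2 had the widest H3K4me3 of the 3, 5815 bp with a score of 3100 over all 4 starts. Its H3K27ac was 2 peaks of 484 and 449 bp scoring 34.2 and 32.9, within 1 kb of start 4 only. NR3C2 would count as H3K4me3 alone with scores of at least 50.

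ESR2 changed state along the gene. Starts 1 and 2 had H3K4me3 of 3510 bp and H3K27ac of 1094 bp scoring 325, starts 3 and 4, about 44.2 kb downstream, had H3K4me3 alone of 1316 bp scoring 795, and start 5, at 55538 bp, had neither. The bases before 3 of these starts and before 2 of NR3C1 are shown, with CpG in capitals, because marks and CpG content fell together. NR3C1 start 1 (neither mark) has 0 CpG in the 250 bases and start 6 (both marks) has 42. Start 6 is the highest of the gene. In the 300 bases around them, starts 3 to 7 have 26, 23, 39, 51 and 27 CpG, and starts 1 and 2 have 0 and 3. ESR2 starts 1, 3 and 5 (both, H3K4me3 alone, neither) have 23, 16 and 2.
NR3C1 start 1, chr5:143435513-143435762, minus strand: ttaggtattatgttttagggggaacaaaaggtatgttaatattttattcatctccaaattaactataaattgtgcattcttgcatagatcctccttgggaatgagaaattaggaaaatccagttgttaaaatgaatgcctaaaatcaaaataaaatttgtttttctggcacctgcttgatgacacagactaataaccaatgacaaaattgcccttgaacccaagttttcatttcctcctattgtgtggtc
NR3C1 start 6, chr5:143403687-143403936, minus strand: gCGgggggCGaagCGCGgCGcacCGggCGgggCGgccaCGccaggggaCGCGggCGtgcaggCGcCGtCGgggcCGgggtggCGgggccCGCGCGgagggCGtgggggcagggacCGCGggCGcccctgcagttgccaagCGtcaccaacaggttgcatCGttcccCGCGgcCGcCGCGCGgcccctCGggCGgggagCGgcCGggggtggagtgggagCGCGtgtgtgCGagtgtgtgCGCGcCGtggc
ESR2 start 1, chr14:64338614-64338863, minus strand: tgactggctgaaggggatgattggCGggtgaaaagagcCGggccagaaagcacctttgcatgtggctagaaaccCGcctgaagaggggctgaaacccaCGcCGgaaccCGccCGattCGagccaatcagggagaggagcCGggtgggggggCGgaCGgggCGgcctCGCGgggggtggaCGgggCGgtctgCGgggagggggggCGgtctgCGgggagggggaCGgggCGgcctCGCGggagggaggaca
ESR2 start 3, chr14:64294411-64294660, minus strand: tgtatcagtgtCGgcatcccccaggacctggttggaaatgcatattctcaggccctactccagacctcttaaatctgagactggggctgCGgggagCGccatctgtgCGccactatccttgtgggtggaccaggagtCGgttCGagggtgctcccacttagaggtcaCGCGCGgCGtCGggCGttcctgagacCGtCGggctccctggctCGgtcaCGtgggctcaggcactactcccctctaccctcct
ESR2 start 5, chr14:64283076-64283325, minus strand: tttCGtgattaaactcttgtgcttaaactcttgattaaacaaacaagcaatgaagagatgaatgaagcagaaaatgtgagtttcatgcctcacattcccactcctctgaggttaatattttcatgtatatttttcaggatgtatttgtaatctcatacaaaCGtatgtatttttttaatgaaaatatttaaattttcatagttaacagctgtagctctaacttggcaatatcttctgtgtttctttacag
RARB goes the other way for H3K27ac at its marked starts, since start 1 has more CpG than start 3 and lacked H3K27ac. In the 300 bases around them these starts have 33 and 7 CpG, and the unmarked starts 2 and 4 have 1 and 2.

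Of the 19 orphan and estrogen-related receptor genes 12 carried both marks, 3 H3K4me3 alone and 4 neither. NR2F2, which encodes COUP-TFII, had the widest peaks of the 43 genes. Its starts, at 96332565 and 96333765 of chromosome 15, lay in H3K4me3 of 11538 bp and H3K27ac of 21684 bp, at percentiles 99.4 and 99.8 of widths at protein-coding starts with that mark. That H3K27ac peak, at 96320568 to 96342251, covered the whole 14218 bp of the gene, overlapped 3 separate H3K4me3 peaks and also held a start of the antisense gene NR2F2-AS1. NR2F1, the paralog encoding COUP-TFI, had H3K4me3 alone of 1397 bp scoring 166 at start 1, in a peak shared with a start of NR2F1-AS1. It had 6 H3K4me3 peaks within its span and 50 kb around, 1 of them scoring 3100, and no H3K27ac peak at all in that window. NR2F6, another COUP-family gene, had H3K4me3 of 4233 bp and H3K27ac of 4839 bp scoring 3100.

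The NR4A genes, immediate early genes whose receptors act without a known ligand, all carried both marks but at unequal H3K27ac. NR4A2 had H3K4me3 over 4565 bp and H3K27ac over 3303 bp, the latter scoring 1325. NR4A3 had 6951 bp of H3K4me3, and the H3K27ac peak within 1 kb of its start scored only 54.3, while a second one 1622 bp away, under the same H3K4me3 peak, scored 946. NR4A1 had H3K4me3 alone at start 1, and 2363 bp of H3K4me3 with 929 bp of H3K27ac scoring 624 at start 2.

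Estrogen-related receptors, which resemble estrogen receptors and regulate energy metabolism, went from strong to weak. ESRRA had H3K4me3 of 2772 bp and H3K27ac peaks of 1807 and 2086 bp scoring 2245 and 1036, the first of them shared with the start of CATSPERZ. ESRRB had H3K4me3 alone at start 3 of 3, scoring 528. ESRRG had 8 listed starts, of which 2 had neither mark, 4 H3K4me3 alone, up to 2050 bp scoring 2214, and 2 both marks, with H3K27ac scoring 35.3 at most.

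NR2C1 and NR2C2 encode the testicular receptors TR2 and TR4. At NR2C2, H3K4me3 was 4408 bp wide and H3K27ac 2909 bp with a score of 3100, and both peaks also held a start of FGD5-AS1. At NR2C1 the widths were 1953 and 1465 bp, the latter scoring 96.4. Peaks at the starts of NR1D2, NR3C1 and NR6A1 also held starts of genes with LOC names. NR6A1, a germ cell receptor gene, had 5219 and 3123 bp. HNF4G, a receptor gene of gut and liver, had 3073 and 2217 bp at its lower-coordinate end, while HNF4A, its paralog and a master regulator of hepatocytes, had neither mark at its 2 starts. NR5A2, the gene of LRH-1, had H3K4me3 of 2145 bp and H3K27ac scoring 32.3, both beginning downstream of start 1, and nothing within 1 kb of start 2, although an H3K4me3 peak of 2112 bp scoring 3100 lay 1985 bp from it. Neither mark was called at NR2E3, a photoreceptor gene, at NR5A1, the gene of the steroidogenic regulator SF-1, or at NR0B2, the gene of the corepressor SHP. NR2E1, a receptor gene of neural stem cells, had H3K4me3 alone of 2007 bp scoring 2418.

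Across the 22 genes with several listed starts, the starts differed in state in 15 and were alike in 7. Over all protein-coding genes with several listed starts, 32.3% had starts that differed. The members have more starts per gene, which gives more room for a difference, and genes were not matched on this. Of the 86 starts 45 had both marks (52.3%, against 56.6% of all listed starts), 16 H3K4me3 alone (18.6%, against 12.3%), 3 H3K27ac alone (3.49%, against 2.27%) and 22 neither (25.6%, against 28.8%).

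Starts with both marks had a median of 24 CpG in the 300 bases around them and those with neither a median of 4, with 18.5 at starts with H3K4me3 alone. Over all protein-coding starts the medians in these states were 27, 5 and 25. Starts of 1 gene overlap in sequence and share peaks, so they are not independent points. The ranges overlapped, from 0 to 65 CpG at starts with both marks and from 0 to 23 at those with neither. NR5A2 start 1 and ESRRG start 5 had both marks and 0 CpG, and ESRRG start 1 had 23 CpG and neither mark within 1 kb, with an H3K4me3 peak of 2221 bp scoring 2398 lying 1040 bp away. The hexamer AGGTCA, the element that many of these receptors bind, occurred on either strand at 15 of 86 starts (17.4%, against 11.9% of all listed starts). Of the 15, 7 had both marks, 3 H3K4me3 alone and 5 neither. Of the 2630 such starts over all protein-coding genes, 1157 had both, 243 H3K4me3 alone, 90 H3K27ac alone and 1140 neither.

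**Figure D3:**
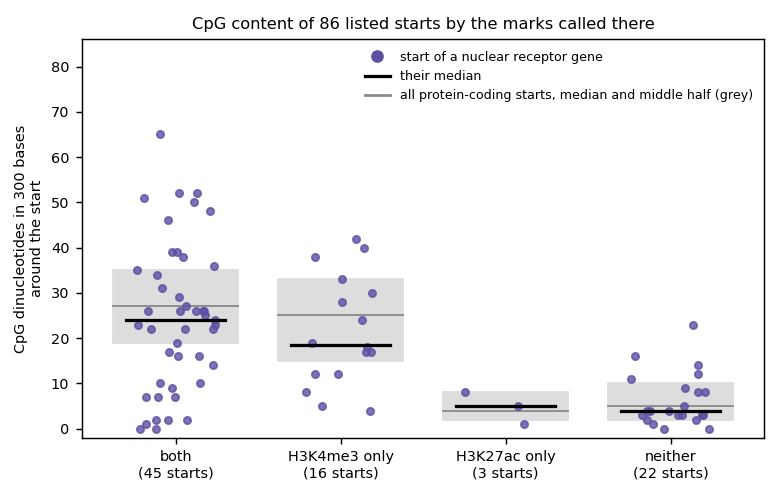
CpG dinucleotides in the 300 bases around each of the 86 listed starts (points), by the marks called within 1 kb, with the median of the points (black) and the median and middle 50% of all protein-coding starts in the same state (grey). Starts with both marks center on 24 CpG and starts with neither on 4, with overlapping ranges.

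Marks inside the spans were read as H3K4me3 peaks lying more than 2.5 kb from both annotated ends. There were 64 in 24 genes, and 50 of them, in 18 genes, overlapped H3K27ac. Of all protein-coding genes 18.6% held such a doubly marked site, and of those of 100 kb or more 47.2% did, against 9 of the 15 nuclear receptor genes of that length. Of genes under 100 kb 12.8% did, against 9 of the 28 nuclear receptor genes of that length. The 43 genes had a median length of 48464 bp against 24190 bp over all genes, and the part of length in the count of 18 was not tested. Doubly marked peaks had median widths and scores of 1465.5 bp and 144, and the 14 without H3K27ac of 1126.5 bp and 62.7. Of the 50, 8 lay within 1 kb of a listed start of their own gene, 1 more at that of another gene, and 41, in 14 genes, at none. These peak counts were not worked out over all protein-coding genes. VDR, among the 14, has no listed start, and a site counted at none may lie at a start that is not listed.

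RORA and NR5A1 held doubly marked sites inside the span and had no doubly marked start. RORA held 7, the strongest at 60588516 to 60594244 of chromosome 15, 33286 bp from the listed start, with H3K4me3 of 5729 bp scoring 3100 and H3K27ac of 3395 bp scoring 3111. Among its H3K27ac peaks without H3K4me3, 1 of 8729 bp at 60967526 to 60976254 scored 3100. NR5A1 held 1, with H3K4me3 of 1073 bp scoring 1364 and H3K27ac of only 372 bp scoring 64.3, 2618 bp from its start. NR5A1 lies 9875 bp from NR6A1, and their windows share 5 H3K27ac and 3 H3K4me3 peaks.

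NR6A1 held 6 such sites, of which 1 at 124657463 to 124661798 of chromosome 9 had H3K4me3 of 4336 bp scoring 3100 and H3K27ac of 4727 bp scoring 2378. RXRA also held 6. At RXRA the H3K4me3 was weak, with scores from 30.6 to 282, inside broader H3K27ac, up to 12598 bp at 134402201 to 134414798 of chromosome 9 with a score of 2852. NR4A1 held 3, the widest at 52049777 to 52053752 of chromosome 12, 12062 bp beyond start 2, with H3K4me3 of 3976 bp scoring 3100 and H3K27ac of 2720 bp scoring 2072. RARB held 7 with start 3 among them, and RARG 2 next to each other, both under an H3K27ac peak of 5933 bp. Other sites had little H3K27ac, as at ESRRG, where H3K4me3 scoring 1997 overlapped 644 bp of H3K27ac scoring 33.6, and at THRB, where 2 of 3 sites overlapped H3K27ac of 541 and 435 bp.

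**Figure D4:**
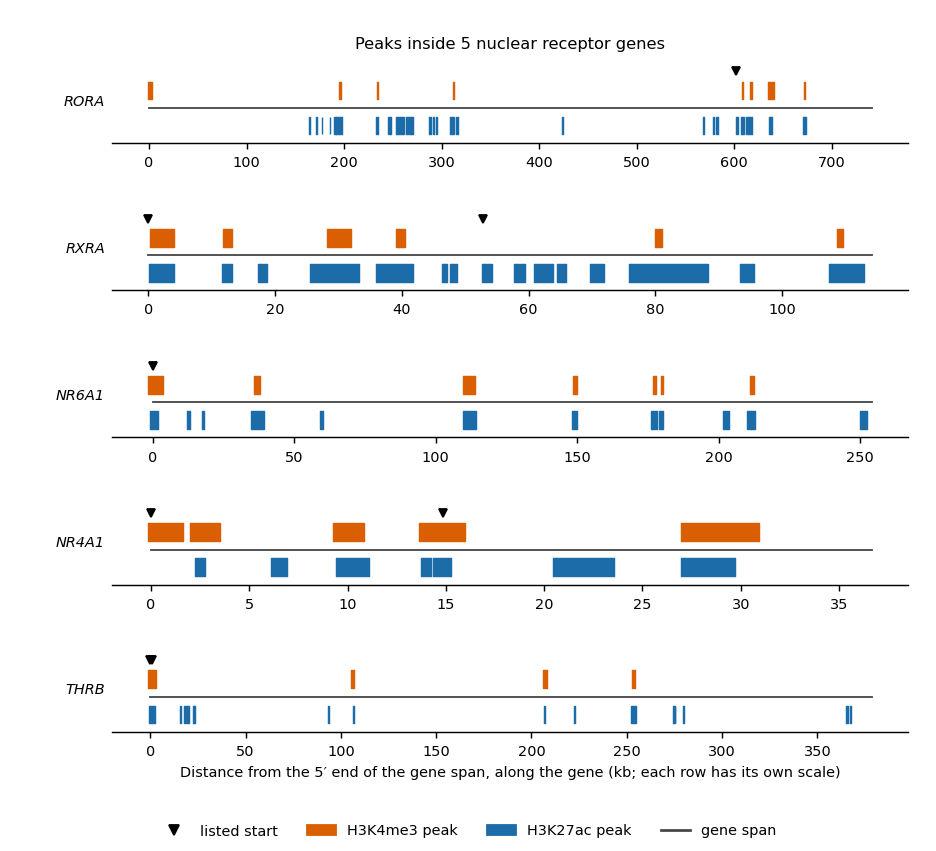
H3K4me3 (upper boxes) and H3K27ac peaks (lower boxes) inside the spans of 5 genes, by distance in kb from the 5′ end of the span in the direction of the gene, with listed starts as triangles; each row has its own scale. RORA has most of its peaks away from its listed start, and RXRA has H3K27ac over much of its 114131 bp.

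Within the spans and 50 kb around them lay 395 different H3K27ac peaks and 204 H3K4me3 peaks. The median number of H3K27ac peaks per gene was 8, from 0 at RORB and NR2F1 to 30 at RARB and RORA, against 6 over all protein-coding genes. Longer genes have longer windows. Per 100 kb of window the median was 4.14 against 3.96, and 25 of 43 genes lay above the value for all genes, so that the density around these genes was close to that of protein-coding genes at large.

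Classes lay at different median densities, with overlapping ranges and no test made. The 3 thyroid hormone and vitamin D receptor genes ran from 3.97 to 11.4 per 100 kb. The retinoid receptors ran from 2.08 to 9.87 and the 3 steroid receptors from 1.55 to 4.72. The medians per 100 kb were 8.56 for the thyroid hormone and vitamin D receptors, 7.64 for the retinoid receptors, 4.37 for both the lipid-sensing and the clock receptors, 3.96 for the orphans and 2.14 for the steroid receptors. The 3 densest windows were those of NR2F6 (14.03 per 100 kb, percentile 97.2), ESRRA (12.6, percentile 95.3) and PPARD (11.9, percentile 93.8). NR2F6 and ESRRA are short genes among neighbours: 7 of 16 peaks at NR2F6 and 9 of 14 at ESRRA lay within 1 kb of a gene start. At PPARD 17 of 22 lay away from any start, and 14 of the 22 were inside the gene, the strongest scoring 1592 at 35359970 to 35362732 of chromosome 6. RXRA had the largest share of its window under H3K27ac, 30.7% (percentile 97). NR0B2, with no mark of its own, had 11 H3K27ac peaks around it, or 10.7 per 100 kb, none of them in its 2487 bp. NR3C1 lay low, with 4 peaks in a window of 257582 bp, of which the one at its starts was the only one inside the gene.

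**Figure D5:**
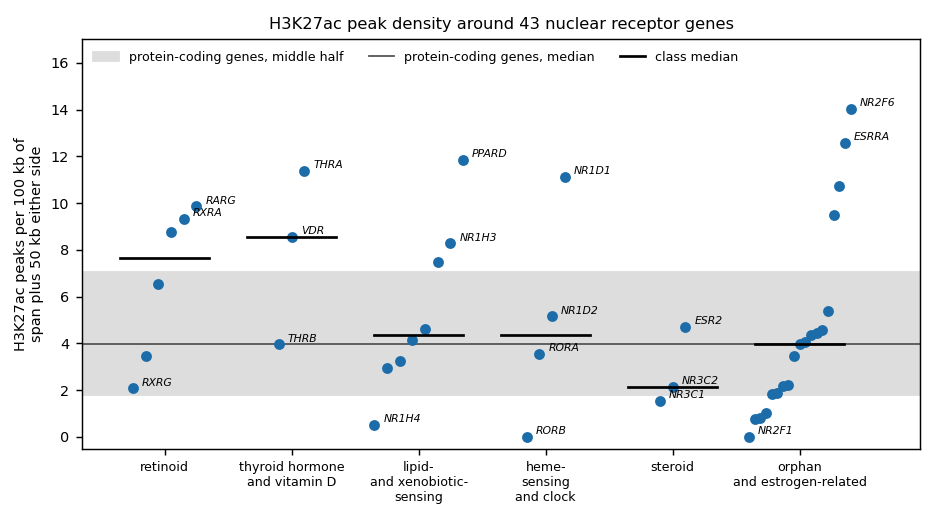
H3K27ac peaks per 100 kb of gene span plus 50 kb on either side for each of the 43 genes (points) by class, with the class median (black bar) and, over all protein-coding genes, the median (grey line) and middle 50% (grey band). The retinoid and the thyroid hormone and vitamin D classes have medians of 7.64 and 8.56, above the line at 3.96. The lipid-sensing and clock medians, both 4.37, lie just above it, the orphan median of 3.96 at it and the steroid median of 2.14 below it. RORB and NR2F1 lie at 0.

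Other genes of these pathways were read in the same way from 3 lists. Of 10 coregulator genes 8 carried both marks (80.0%, against the 57.7% of all genes), among them the coactivator genes NCOA1 and NCOA3 and the corepressor gene NCOR1. PPARGC1B had H3K27ac alone and NCOA2, read at its ends, neither, while PPARGC1A had the marks at different starts. In the span or the adjoining 1 kb, PPARGC1B and NCOA2 had both marks. Of 18 genes of ligand synthesis, breakdown and transport 9 carried both (50%, against 57.7%). H3K4me3 alone was called at 5 (27.8%, against 12.2%) and neither at 4 (22.2%, against 27.8%). Within retinoic acid metabolism the marks were unequal. ALDH1A3, which makes retinoic acid, had an H3K4me3 peak of 8466 bp and an H3K27ac peak of 6922 bp, ALDH1A2 had H3K4me3 alone and ALDH1A1 neither. CYP26B1, which breaks it down, had 10094 bp and 20827 bp, and CYP26A1 had H3K4me3 alone. CRABP2, a retinoic acid carrier gene, had 7585 and 15660 bp.

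Vitamin D enzymes CYP27B1 and CYP24A1 had H3K4me3 alone at their ends, and CYP24A1 also held 1 doubly marked site inside its span. Of the thyroid hormone deiodinase genes, DIO1 had both marks, with 6526 bp of H3K27ac, and DIO2 and DIO3 neither. Of 15 known target genes 10 carried both marks (66.7%), including the glucocorticoid-induced FKBP5 and TSC22D3, the thyroid hormone and glucocorticoid target KLF9 and the LXR target ABCA1. ANGPTL4 and PDK4, induced through PPARs, and the clock gene BMAL1 had H3K4me3 alone at the places read. PLIN2 and CPT1A, also known as PPAR targets, had both marks, with H3K27ac of 1876 and 1165 bp scoring 429 and 121. PER1 and ABCG1 had neither mark at the places read. In the span or the adjoining 1 kb, BMAL1, PER1 and ABCG1 had both.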

How the data were processed

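HCC1599 chromatin was immunoprecipitated for H3K27ac and for H3K4me3 and sequenced, 1 library each. Formaldehyde fixed the cells and the DNA was broken up, per the labels' protocols, by sonication and micrococcal nuclease, so peak edges depend on the digestion. The submitters' processing notes name Bowtie2, MACS 1.4 and the build hg38; parameters are not given in the sources used here. The authors deposited a list of peaks per mark, called against the input as the deposited names have it, with a score of unstated unit, used here only to describe and filter peaks within a list. The input itself and read depth were not analysed here.

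Positions are counted from 1. A mark was called where any peak shared 1 bp or more with the 1 kb before and after a start from RefSeq's promoter table (GRCh38.p14, the same build family), or of either end of the gene span where no start was listed. The plan had a single annotated start per gene; the table gave several, and all were used. Peaks were assigned to windows of the span plus 50 kb. Intervals are exact Clopper-Pearson intervals at 95%. No test was run. The receptor classes, pathway lists and members were chosen with earlier results of these data known. Genes named in full were, per class, the 2 with the widest H3K4me3, and all with a single mark, a doubly marked site inside the span but not at a start, the 3 highest peak densities, or a neighbour in the list; up to 4 genes per state were to be taken from the pathway lists. All other named values, and the search for direct repeats, were chosen after the values were seen. Python 3.11.15, numpy 2.4.6, pandas 2.3.3, scipy 1.17.1 and matplotlib 3.10.9 were used. Overlap counts differed from bedtools 2.31.1 in 0 windows, and the counting was tested on simulated data.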

Additional observations from a re-analysis of the deposited data

How the results depend on the processing

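The count of genes with both marks at a start, 30, ranged from 24 to 36 over 8 alternatives and stayed within 1.5 times of the value reported. The smaller states moved more. With H3K4me3 alone, 5 genes became 9 with scores of at least 100, 8 at either end of the gene, 3 for a peak anywhere in the span or the adjoining 1 kb, and 8 where 50% of the window had to be covered. With H3K27ac alone, 2 became 1 within 500 bp, with scores of at least 100 or 50, at either end and in the span, and 0 at 50% covered. With neither, 6 became 10 at either end, at 50% covered and at the first listed start, and 3 in the span. First listed starts and scores of at least 50 were added after seeing the data. Sites with both marks inside the span, in 18 genes, were called in 12 to 16 under its 3 alternatives. The 395 H3K27ac peaks became 606 with flanks of 100 kb and 191 with scores of at least 100. The median CpG count at starts with H3K27ac alone went from 5 to 2 within 500 bp. No paired analysis was possible because each mark has 1 library. Depth, unknown here, limits what an absent peak can show.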

Other observations

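Paralogous receptor genes lie together on chromosomes 3 and 17, an arrangement known from genome duplication, and were set side by side after their values were seen. On chromosome 17, RARA, THRA and NR1D1 had 8.76, 11.4 and 11.1 H3K27ac peaks per 100 kb of span plus 50 kb flanks. On chromosome 3, RARB, THRB and NR1D2 had 3.45, 3.97 and 5.17. Each gene on chromosome 17 thus had a higher density than each on chromosome 3, with THRA and NR1D1 sharing 12 peaks. H3K27ac covered 10.4, 22.4 and 24.7% of the windows on chromosome 17 and 5.43, 3.96 and 11.6% on chromosome 3, so here RARA lay below NR1D2. At the starts the order was the reverse for H3K27ac width: 1004, 1059 and 4160 bp on chromosome 17 for RARA, THRA and NR1D1 and 5119, 2919 and 3832 bp on chromosome 3 for RARB, THRB and NR1D2, with NR1D1 the exception. RARB and THRB are 768612 and 378556 bp long against 48464 and 31675 bp for RARA and THRA. The part of gene length in these differences was not tested.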
